A study of Mus musculus with 9 samples.

Results

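The insulin-like growth factor (IGF) system was followed in cumulus cells, which enclose the oocyte in the follicle, through 8 genes: the ligand Igf1, the receptors Igf1r and Igf2r, and the binding protein genes Igfbp1 to Igfbp5. The members were all probe sets annotated to these genes alone, 8 of the 18194 genes and 23 of the 45101 probe sets on the array. The 9 arrays came from 3 genotypes with 3 arrays each. Wildtype females were compared with females that lacked the oocyte growth factor BMP15 (Bmp15-/-) and with females that lacked BMP15 and had 1 intact copy of the gene for GDF9, a second oocyte growth factor (Bmp15-/-Gdf9+/-, labelled DM). All groups were on a mixed B6/129 background, were 4 to 5 months old, and had been given 5 IU of equine chorionic gonadotropin 48 hours earlier to make follicles grow. Each array held cumulus cells stripped from 75 to 100 complexes of large antral follicles, pooled from 3 to 4 mice, and had its 10 ng of RNA amplified in 2 rounds. The medium held 5 µM milrinone, a phosphodiesterase inhibitor that keeps oocytes from maturing, in all groups. The mutations were present in the whole animal, so follicles had grown without BMP15 before the cells were taken. In these bulk samples, fewer cells of a type and less RNA per cell cannot be told apart.

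IGF1 binds the receptor tyrosine kinase IGF1R, which signals through the IRS adaptors and the PI3K-AKT kinases. IGF2R, also the mannose 6-phosphate receptor, takes up IGF2 for degradation and carries lysosomal enzymes. The IGF binding proteins hold the ligands in body fluids and matrix and control how much reaches the receptor. In the ovary, IGF1 made by granulosa cells increases their response to follicle-stimulating hormone, and several binding proteins are known to oppose this.

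Igfbp1 and Igfbp5 had the largest differences among the 8 genes, in opposite directions. Their promoters are shown for that reason, as the 250 bases before the transcription start in RefSeq (build GRCm38.p6). The Igfbp1 sequence is chr11:7197537-7197786 on the + strand, and that of Igfbp5 is chr1:72874866-72875115 on the - strand. Both run 5′ to 3′, and capitals mark CAAAACA and CAAAATA on either strand, letters found in the insulin response sequence for which Igfbp1 is known and to which FOXO factors bind.
Igfbp1: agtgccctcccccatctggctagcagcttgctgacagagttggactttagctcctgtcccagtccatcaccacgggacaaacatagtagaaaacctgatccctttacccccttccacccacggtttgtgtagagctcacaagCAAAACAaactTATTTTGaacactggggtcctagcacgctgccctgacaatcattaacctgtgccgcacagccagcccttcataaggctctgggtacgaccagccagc
Igfbp5: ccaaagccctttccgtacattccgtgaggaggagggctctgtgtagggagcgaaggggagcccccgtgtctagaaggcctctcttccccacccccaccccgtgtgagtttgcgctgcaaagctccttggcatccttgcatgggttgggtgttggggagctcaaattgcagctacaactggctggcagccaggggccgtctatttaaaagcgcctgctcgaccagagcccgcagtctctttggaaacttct
The Igfbp1 promoter held CAAAACA at 108 to 102 bases before the start, and the complement of CAAAATA at 97 to 91 bases, with no overlap. All 8 genes had a promoter in the table, and Igfbp2 had 2. Of these 9 promoters only that of Igfbp1 held either motif, which 5.56% (CAAAACA) and 3.95% (CAAAATA) of all 32851 promoters of this length held. Another FOXO motif, GTAAACA, was in 0 of the 9 and in 3.17% of all promoters. ACGTG, the core of the hypoxia response element, was in 2 of the 9, those of Igf2r and Igfbp2, and in 16.6% of all. Its matches lay in CACGTG, which reads the same on both strands. In gene order among protein-coding genes, Igfbp1 lies next to Igfbp3 on chromosome 11, and Igfbp2 next to Igfbp5 on chromosome 1.

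The samples carried the granulosa and cumulus transcripts that their label implies. All 6 granulosa markers and all 7 cumulus markers that matched the array exceeded the 40th percentile of their array on all 9 arrays, which served as the limit for dim values and lay at a mean log2 value of 5.02. The cumulus list itself moved with genotype. The log2 of its summed level was 14.39 to 14.43 in wildtype arrays, 14.17 to 14.26 in Bmp15-/- arrays and 13.45 to 14.02 in DM arrays. Of its 7 genes, Kitl and Npr2 were called lower in Bmp15-/-, where 5.78% of all genes tested were. In DM, Inhba, Inhbb, Kitl and Npr2 were called lower, where 18.2% of genes were, and Slc38a3 higher, where 9.95% were. Of the 6 granulosa genes, 0 were called in Bmp15-/-. In DM, Amhr2 and Nr5a2 of that list were called higher and Foxl2 lower, beside the same shares of all genes. Endothelial markers were mostly dim, with Pecam1, Kdr, Tek and Emcn under the limit on every array. The log2 of the summed level of 12 oocyte markers ranged from 9.47 to 11.51 (wildtype), 9.18 to 10.90 (Bmp15-/-) and 8.99 to 9.60 (DM). For Bmp15 itself, wildtype arrays 1, 2 and 3 read 5.10, 9.58 and 8.41 (log2) and the 6 mutant arrays 5.05 to 5.10. On this probe set the library labelled wildtype array 1 thus lay at the mutant level. On a dimmer Bmp15 probe set it read 3.97, against 9.34 and 7.97 on wildtype arrays 2 and 3 and 3.45 to 3.67 in the mutants. Its oocyte marker sum was the lowest of the wildtype arrays, at 9.47 against 11.51 and 10.26. Gdf9 had 5.03 to 8.12 (wildtype), 4.99 to 6.59 (Bmp15-/-) and 4.67 to 5.63 (DM). As both are oocyte transcripts, they check a genotype only as far as oocyte RNA is present, and it was not given whether the probe sets lie in the deleted parts. The excess of the 3' over the 5' control signal of Gapdh, which grows as RNA is shortened, was 0.52 to 0.59 (wildtype), 0.66 to 0.73 (Bmp15-/-) and 0.79 to 0.95 (DM) on the log2 scale. The log2 of the summed level of 5 mural granulosa and luteal markers was 9.52 to 9.87, 10.02 to 10.38 and 10.02 to 10.73 in the same order. It was carried mostly by Cd36, at 9.01 to 9.43, 9.56 to 10.08 and 9.60 to 10.48. The median of the 5 was 5.97 to 6.17, 6.26 to 6.42 and 6.28 to 6.36. Of the 4 that were tested, Star was called higher in Bmp15-/-, where 3.29% of genes were, and Cd36 in DM, where 9.95% were. The part of these values in the results was not tested.

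The brightest probe set stood for each gene, all 8 passed the limit on at least 3 arrays, and a gene was called at an adjusted p under 0.05 over 13447 genes tested. In Bmp15-/- cumulus cells, Igfbp5 rose 3.58-fold and Igfbp1 fell 3.28-fold against wildtype. In DM cells, Igfbp5 was 5.96-fold higher and Igfbp1 8.95-fold lower, and Igf1 (1.74-fold), Igfbp2 (1.65-fold) and Igf2r (1.52-fold) were lower as well. Igf1r, Igfbp3 and Igfbp4 passed in neither mutant. Both comparisons share the wildtype arrays.

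**Figure D1:**
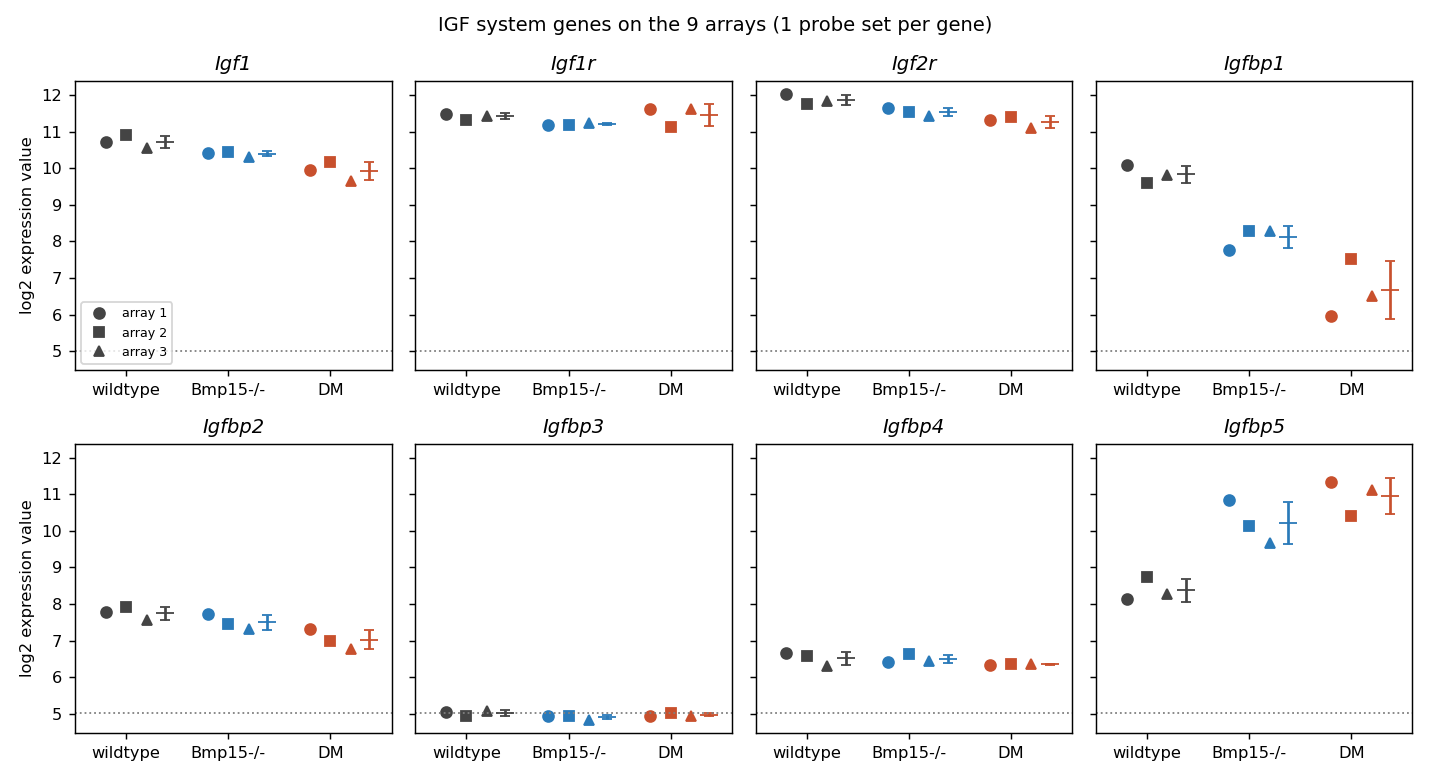
Log2 expression value (vertical axis) of the probe set that stands for each of the 8 genes on the 9 arrays, with arrays 1 to 3 of a genotype as circle, square and triangle, and beside them the group mean with its SD (n = 3). The dotted line is the mean 40th percentile of the arrays, 5.02. Levels of different genes are not comparable. Igfbp1 steps down from 9.60 or more in wildtype to 7.53 or less in DM, and Igfbp5 steps up from 8.73 or less to 10.40 or more.

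Igfbp1, a binding protein that in other tissues is repressed by insulin, had log2 values of 10.07, 9.60 and 9.82 on the wildtype arrays. In Bmp15-/- it had 7.78, 8.29 and 8.29, and in DM 5.96, 7.53 and 6.52. The 3 groups did not overlap, with wildtype highest and DM lowest, and the SD in DM, 0.79, exceeded that in wildtype, 0.24. The log2 change was -1.71 ± 0.34 (SE) in Bmp15-/- (adjusted p = 0.0162) and -3.16 ± 0.34 in DM (adjusted p = 0.000268). The call in Bmp15-/- was lost without wildtype array 1 (adjusted p = 0.0602), wildtype array 3 (0.0539) or Bmp15-/- array 1 (0.0502), at changes of -1.59, -1.72 and -1.54. DM lay below Bmp15-/- on all arrays, with a difference of -1.45 (95% interval -2.20 to -0.69, adjusted p = 0.0528), which did not pass. Over the alternatives its adjusted p ranged from 0.004 to 0.158.

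Igfbp5, a binding protein that attaches to extracellular matrix, had 2 probe sets. The brighter gave log2 values of 8.13, 8.73 and 8.27 (wildtype), 10.83, 10.14 and 9.68 (Bmp15-/-) and 11.34, 10.40 and 11.11 (DM). Every mutant array lay above every wildtype array, while the ranges of the mutants overlapped. Its level rose by 1.84 ± 0.32 log2 units in Bmp15-/- (adjusted p = 0.00948) and by 2.57 ± 0.32 in DM (adjusted p = 0.000532). DM exceeded Bmp15-/- by 0.73 (95% interval 0.02 to 1.44, adjusted p = 0.235). The other probe set gave 7.00 to 7.27 (wildtype), 8.48 to 9.47 (Bmp15-/-) and 8.62 to 10.10 (DM), and was also called in both mutants.

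Igfbp5 is known to be made by stromal cells too, so the theca and stroma markers were set beside it. In DM, 3 of the 5 tested markers rose (Acta2, Col1a1 and Pdgfra) and Pdgfrb fell, where 9.95% of all genes tested were called higher and 18.2% lower. In Bmp15-/- Pdgfra rose and Pdgfrb fell, where 3.29% were called higher and 5.78% lower. Col3a1 was called in neither mutant. The log2 of the summed level of the 9 matched markers was 9.14 to 9.43 (wildtype), 9.51 to 9.62 (Bmp15-/-) and 9.92 to 10.29 (DM). Such a sum is carried by the brightest genes. The median of the 9 markers overlapped between groups, at 4.88 to 5.32 (wildtype), 5.11 to 5.35 (Bmp15-/-) and 5.03 to 5.31 (DM). Pdgfra had 7.43 to 8.03 on the wildtype arrays, 8.46 to 8.70 on the Bmp15-/- arrays and 8.88 to 9.47 on the DM arrays. Dcn, Lum and Col1a2 of the same list lay under the 40th percentile on all 9 arrays. The part of these markers in the Igfbp5 result was not tested.

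Igf1, the ligand, had 4 probe sets, and all of them fell in DM. The brightest had log2 values of 10.71, 10.89 and 10.56 (wildtype), 10.40, 10.45 and 10.31 (Bmp15-/-) and 9.96, 10.16 and 9.65 (DM). The groups did not overlap, and each mutant step was smaller than those of Igfbp1. Its level fell by 0.80 ± 0.14 in DM (adjusted p = 0.00286), and in Bmp15-/- the change was -0.33 ± 0.14 (95% interval -0.64 to -0.02, adjusted p = 0.16), which did not pass. The dimmest probe set had the largest change, with 8.35 to 8.52 (wildtype), 7.10 to 7.78 (Bmp15-/-) and 6.33 to 7.37 (DM). Its change in DM was -1.70 (adjusted p = 0.00187 over all 23735 probe sets tested), and that in Bmp15-/- was -0.94 (adjusted p = 0.059). The size of the Igf1 fall in DM thus depended on the probe set, from -0.80 to -1.70 on the log2 scale. An RNA from the opposite strand, Igf1os, stayed under the 40th percentile on all 9 arrays.

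Of the receptors, Igf2r was lower in DM and Igf1r was not called. Igf2r had log2 values of 12.02, 11.75 and 11.84 (wildtype), 11.65, 11.54 and 11.43 (Bmp15-/-) and 11.31, 11.40 and 11.09 (DM). The groups did not overlap, in small steps. It fell by 0.60 ± 0.11 in DM (adjusted p = 0.00415), and its change in Bmp15-/- was -0.33 ± 0.11 (adjusted p = 0.0964). Its dimmer probe set was also called in DM, at -0.85 (adjusted p = 0.0105). Igf2r is an imprinted gene in the mouse, overlapped by the antisense RNA Airn. None of the 5 Airn probe sets was called in either mutant, with changes in DM of -0.59 to 0.23. A further probe set, named for both genes and therefore not a member, read 5.41 to 5.53 in wildtype and 5.24 to 5.36 in the mutants.

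Igf1r, the signalling receptor for IGF1, had log2 values of 11.49, 11.33 and 11.42 (wildtype), 11.19, 11.17 and 11.22 (Bmp15-/-) and 11.63, 11.12 and 11.63 (DM). Wildtype and DM overlapped, and their difference was 0.04 (95% interval -0.26 to 0.35). The Bmp15-/- arrays lay below the wildtype arrays by 0.22 (95% interval -0.52 to 0.08, adjusted p = 0.33). Of its 5 probe sets, 3 passed the limit and 0 were called, and the sign in DM differed between them (0.04, 0.22 and -0.26).

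Igfbp2, another soluble binding protein, had log2 values of 7.78, 7.92 and 7.57 (wildtype), 7.73, 7.46 and 7.32 (Bmp15-/-) and 7.31, 7.00 and 6.78 (DM). DM lay below both other groups, which overlapped each other. It fell by 0.72 ± 0.16 in DM (adjusted p = 0.00932), with a change of -0.25 in Bmp15-/- (95% interval -0.61 to 0.11, adjusted p = 0.349). Igfbp2 and its neighbour on chromosome 1, Igfbp5, were thus called in opposite directions in DM.

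Igfbp3, the main carrier of IGFs in serum, was at the limit of dim values, with 4.84 to 5.09 on all 9 arrays in 1 probe set and 3.67 to 4.29 in the other. It passed the limit on 3 arrays only. Its changes were -0.12 in Bmp15-/- and -0.05 in DM (95% interval -0.22 to 0.13), at a level where array values compress differences.

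Igfbp4, a binding protein that is cut by the protease PAPPA in the ovary, depended on the probe set. The brightest of its 6 gave 6.32 to 6.66 (wildtype), 6.43 to 6.63 (Bmp15-/-) and 6.35 to 6.37 (DM), and was not called (adjusted p = 0.907 and 0.275). The dimmest probe set gave 5.54, 5.31 and 5.27 (wildtype), 4.73, 4.12 and 4.48 (Bmp15-/-) and 3.84, 4.32 and 4.00 (DM). The mutant arrays lay below all wildtype arrays, with differences of means of -0.93 and -1.32. As this probe set passed the limit through the wildtype arrays alone, its difference was favoured by the filter and is given as a description. Of the other 5, 1 was called lower in DM (-0.61, adjusted p = 0.0428 over all probe sets), and 4 were called in neither mutant.

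**Figure D2:**
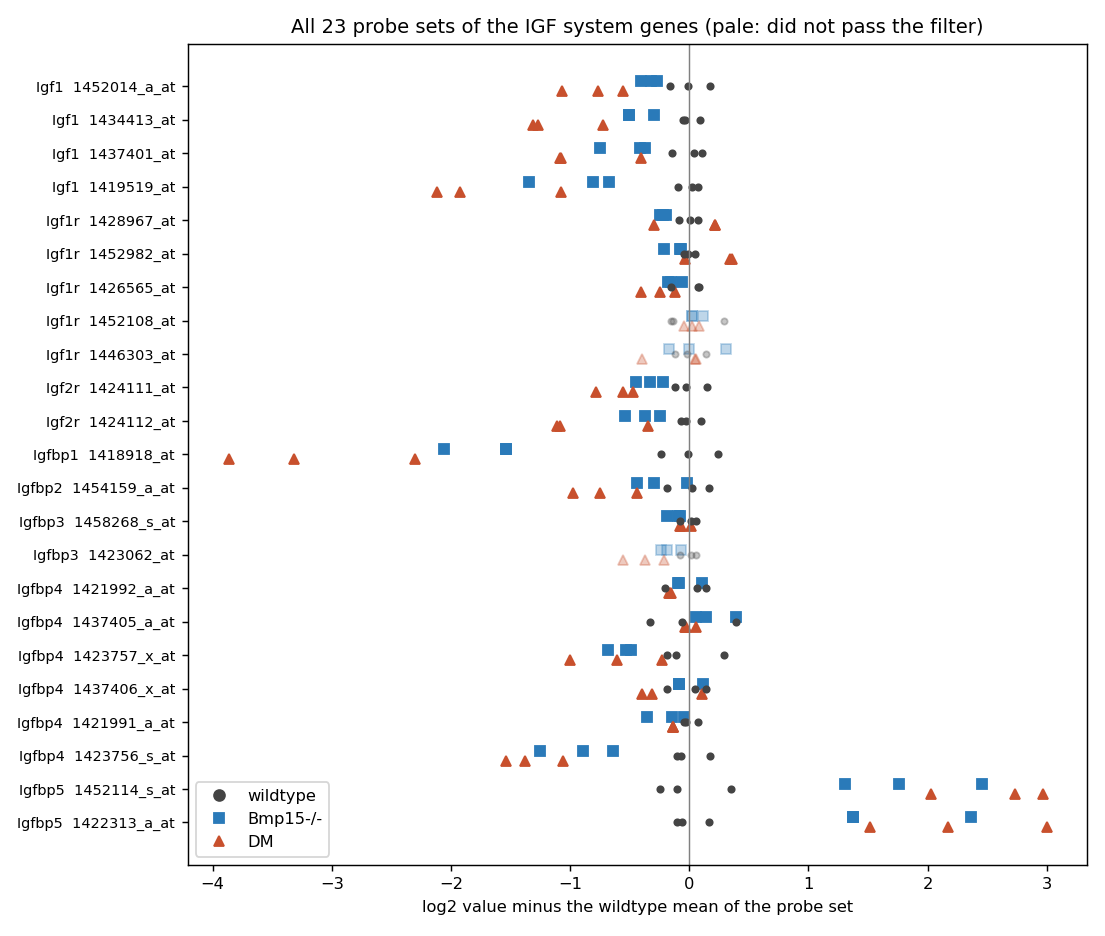
Log2 value minus the wildtype mean (horizontal axis) for the 23 probe sets of the 8 genes, with 1 symbol per array and pale symbols for the 3 probe sets that did not pass the limit on dim values. All 4 Igf1 probe sets lie left of wildtype in DM and both Igfbp5 probe sets lie right of it in both mutants, while the 6 Igfbp4 probe sets split.

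Over probe sets, 20 of 23 passed the limit. In Bmp15-/-, 2 were called higher and 2 lower, where 7.6% of all probe sets were called (2.37% higher and 5.24% lower). In DM, 2 were called higher and 10 lower, where 26.5% were called (8.34% higher and 18.1% lower). Leaving out the Igfbp4 probe set that passed through wildtype alone, 1 was lower in Bmp15-/- and 9 in DM. Between DM and Bmp15-/-, limma called 0, where 2.37% of all were called (1.16% higher and 1.2% lower). An unadjusted p under 0.05 was found for 10, or 9 without that Igfbp4 probe set, and for 19.2% of all.

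Over genes, 2 of 8 were called in Bmp15-/- (1 higher, 1 lower), where 9.07% of genes tested were (3.29% higher, 5.78% lower). In DM, 5 of 8 were called (1 higher, 4 lower), where 28.1% were (9.95% higher, 18.2% lower). The median change of the 8 was -0.24 in Bmp15-/- and -0.38 in DM, against -0.04 and -0.06 over all genes tested. In each mutant, 5 of 8 genes had all 3 arrays outside the wildtype range, against 36.8% of genes in Bmp15-/- and 43.3% in DM. In each, 4 of the 5 lay below wildtype, against 23.4% and 27.4% of genes, and 1 above, against 13.4% and 15.9%. The split of calls over all genes moved with scaling, from 442 higher and 777 lower to 587 and 520 after quantile normalization in Bmp15-/-, and from 1338 and 2442 to 1738 and 1856 in DM. The 7 called member changes kept direction and call under it. Without wildtype array 1, 5 members were called in DM, where 2655 of 13447 genes were. In Bmp15-/-, 1 member was called, Igfbp5 (1.72, adjusted p = 0.0398), where 593 genes were.

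**Figure D3:**
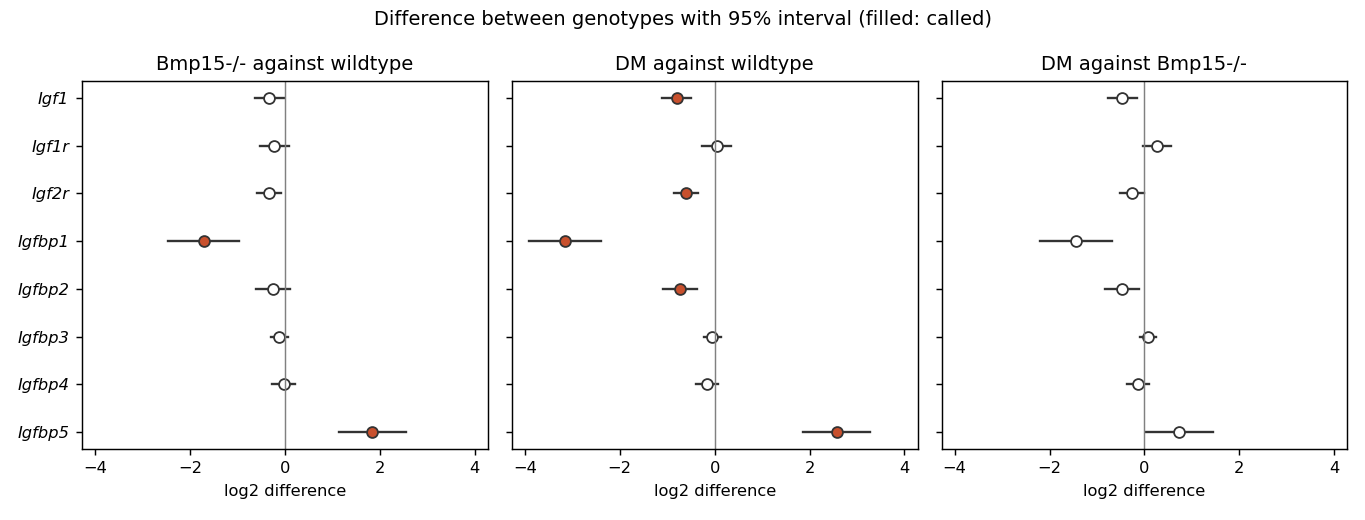
Difference between genotypes on the log2 scale (horizontal axis) for the 8 genes in the 3 comparisons, with the 95% interval of the limma fit as a line and filled circles for called genes. Igfbp1 and Igfbp5 are filled in both comparisons with wildtype, and no gene is filled in DM against Bmp15-/-.

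Set against Bmp15-/-, the DM cells differ by the loss of 1 Gdf9 allele. In limma, 0 of 8 members were called, where 3.25% of genes were (1.64% higher, 1.61% lower), and 5 had an unadjusted p under 0.05 (Igf1, Igf2r, Igfbp1, Igfbp2 and Igfbp5), where 19.9% of genes did. DM lay below Bmp15-/- on all arrays for Igf1, Igf2r, Igfbp1, Igfbp2 and Igfbp4, where groups did not overlap for 21.4% of genes, 12.5% with DM below. The differences were -0.46 for Igf1 (95% interval -0.77 to -0.16, adjusted p = 0.0995), -0.47 for Igfbp2 (-0.83 to -0.11, adjusted p = 0.142) and -0.27 for Igf2r (-0.52 to -0.02, adjusted p = 0.219). Spread within DM was part of this comparison. Of the 12 member probe sets called in DM against wildtype, DM array 2 was the DM array nearest to the Bmp15-/- mean in 11, and it was so in 49.6% of all 6281 called probe sets. The 12 are not separate observations, as 4 of them belong to Igf1. They also hold the Igfbp4 probe set that passed the limit through wildtype alone. Without DM array 2, 922 of 13447 genes were called against Bmp15-/-, where 437 were with all arrays. Among the 922 were 3 members, Igfbp1 (-1.88, adjusted p = 0.004), Igf1 (-0.58, adjusted p = 0.0359) and Igf1r (0.43, adjusted p = 0.022). Leaving out any other array gave 105 to 301 genes and 0 members, and DM array 2 was picked out after its values were seen. DM array 2 had the highest 3' minus 5' difference of the beta-actin control, 2.12 against 1.85 to 1.92 on the other arrays. The part of this in the result was not tested.

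Other genes of the IGF pathway were read from 5 lists of 49 genes, of which 45 matched a probe set of 1 gene and 43 were tested. In Bmp15-/-, 4 rose (Insr, Irs1, Pik3r1 and Grb14), 2 fell (Stc1 and Gab1) and 37 did not pass, where 9.07% of all genes were called. In DM, 7 rose, 5 fell and 31 did not pass, where 28.1% of all genes were called, so the share called in DM was near the background. The median change was -0.04 in Bmp15-/- and -0.00024 in DM, against -0.04 and -0.06 over all genes tested. In DM against Bmp15-/-, 1 rose (Pik3r1). With the mean of all probe sets of a gene, the count was 3 in Bmp15-/- and 0 between the mutants. In Bmp15-/- it was also 3 without any 1 of wildtype arrays 2 and 3 and Bmp15-/- arrays 2 and 3. Between the mutants it was 0 without Bmp15-/- array 1 or 2 and 2 without DM array 3. In DM it was 8 without wildtype array 1 or 3. On a probe set other than the one that stands for the gene, 1 further gene was called in Bmp15-/- (Stc2) and 6 in DM (Akt1, Grb2, Gsk3b, Htra1, Pdpk1 and Stc2). Of all probe sets tested, 7.6% were called in Bmp15-/- and 26.5% in DM. A gene with several probe sets has more chances of such a call, so these are given as a description.

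Among 7 further ligands, receptors and binding proteins, only the insulin receptor Insr was called. Its brightest probe set had log2 values of 7.58, 7.75 and 7.88 (wildtype), 8.40, 8.30 and 8.59 (Bmp15-/-) and 8.90, 8.71 and 8.84 (DM), with no overlap between the 3 groups. It rose 1.61-fold in Bmp15-/- (adjusted p = 0.00746) and 2.12-fold in DM (adjusted p = 0.000224). Its other tested probe set, at 4.80 to 5.65, was called in neither mutant, and with the mean of its probe sets Insr was not called (adjusted p = 0.529 and 0.086). Igf2, the other IGF ligand, had 5.39 to 5.73 (wildtype), 5.48 to 5.67 (Bmp15-/-) and 5.25 to 5.49 (DM) (adjusted p = 0.836 and 0.213). Igfbp6 and Igfbp7 had changes in DM of -0.13 and -0.42 (adjusted p = 0.379 and 0.0977).

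Among 7 tested proteases of binding proteins and their inhibitors, the stanniocalcin Stc1, whose protein inhibits PAPPA, fell in both mutants. It had log2 values of 6.44, 7.78 and 7.51 (wildtype), 5.42, 5.29 and 5.28 (Bmp15-/-) and 4.74, 5.15 and 5.28 (DM). The mutant arrays lay near the limit of dim values and below all wildtype arrays, a 3.77-fold fall in Bmp15-/- (adjusted p = 0.00639) and a 4.56-fold fall in DM (adjusted p = 0.000861). Its relative Stc2, named after its values were seen, was not called on its brightest probe set (-0.07 and -0.14). Another of its 3 probe sets was called lower in both mutants (-1.08, adjusted p = 0.00527, and -0.83, adjusted p = 0.00433, over all probe sets). Pappa and Pappa2 themselves stayed under the 40th percentile on all 9 arrays, at 4.21 to 4.52 and 3.64 to 4.11. In DM, the metalloproteinase gene Adam12 rose 2.08-fold (adjusted p = 0.0249) and Adam9 fell 1.28-fold (adjusted p = 0.0379). Adam12 did not pass without any 1 of wildtype arrays 1 and 2 and DM arrays 1 and 2, at adjusted p up to 0.0895. Adam9 did not pass without any 1 wildtype array, Bmp15-/- array 1, or DM array 2 or 3, at adjusted p up to 0.111, or after quantile normalization (0.0819).

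In the 16 tested genes of adaptors and PI3K-AKT signalling, 2 rose and 1 fell in Bmp15-/-, and 2 rose and 3 fell in DM, against 9.07% and 28.1% of all genes called. Irs1, which docks to the insulin and IGF1 receptors, had 9.69, 9.69 and 9.75 (wildtype), 10.16, 10.17 and 10.16 (Bmp15-/-) and 10.57, 10.76 and 10.32 (DM). The 3 groups did not overlap, with a 1.37-fold rise in Bmp15-/- (adjusted p = 0.0345) and a 1.79-fold rise in DM (adjusted p = 0.000715). In Bmp15-/- the call was lost when any 1 of the 6 arrays compared was left out (adjusted p = 0.0732 to 0.102), at changes of 0.44 to 0.47 against 0.45 with all arrays. Pik3r1, the regulatory subunit p85 of PI3K, rose 1.54-fold in Bmp15-/- (adjusted p = 0.0242), 2.57-fold in DM (adjusted p = 0.00019) and 1.67-fold from Bmp15-/- to DM (adjusted p = 0.0235). Of its 4 probe sets, 2 had smaller changes in DM (0.28 and 0.26) that were not called. The calls from wildtype to Bmp15-/- and from Bmp15-/- to DM were lost with the mean of its probe sets (adjusted p = 0.109 and 0.085). The former was also lost without wildtype arrays 2 or 3 or Bmp15-/- arrays 2 or 3, and the latter without Bmp15-/- arrays 1 or 2. The docking protein Gab1 fell 1.25-fold in Bmp15-/- and 1.24-fold in DM, and after quantile normalization it passed in neither (adjusted p = 0.146 and 0.131). Of 20 alternatives, 15 lost the Gab1 call in Bmp15-/- and 6 that in DM. In Bmp15-/- these included no filter on dim genes, the mean of probe sets and each probe set tested on its own (adjusted p = 0.0579). The call was also lost there without any 1 of the wildtype or Bmp15-/- arrays or DM array 1, at changes of -0.39 to -0.27 against -0.33. In DM it was lost without wildtype array 1 or 3 or DM array 3, at -0.30 to -0.25 against -0.31. In DM the PI3K catalytic subunit Pik3cb fell 1.35-fold (adjusted p = 0.0379) and the mTOR activator Rheb had a log2 change of -0.38 ± 0.08 (adjusted p = 0.00708). Pik3cb did not pass after quantile normalization (adjusted p = 0.0534), or without any 1 of wildtype arrays 1 and 3, the Bmp15-/- arrays, and DM arrays 2 and 3 (up to 0.131).

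Among 11 negative regulators and FOXO factors, Grb14, an adaptor that inhibits the insulin receptor kinase, had 10.96, 10.56 and 10.75 (wildtype), 11.80, 11.51 and 11.98 (Bmp15-/-) and 12.50, 12.47 and 12.12 (DM). The groups did not overlap, and it rose 2.01-fold in Bmp15-/- (adjusted p = 0.00652) and 3.04-fold in DM (adjusted p = 0.000169). Its other probe set, dimmer at 4.95 to 6.04, was called in neither mutant. Its changes were 0.25 and 0.43 (adjusted p = 0.57 and 0.223 over all probe sets). Foxo4, a transcription factor excluded from the nucleus by AKT, rose 1.61-fold in DM (adjusted p = 0.00172). The other 9, among them Foxo1, Foxo3 and Socs3, were called in neither mutant. Of the 2 tested IGF2 mRNA-binding proteins, Igf2bp1 rose 1.65-fold in DM (adjusted p = 0.0268), from 5.17 ± 0.17 to 5.90 ± 0.10 (SD, n = 3), near the limit of dim values. It did not pass without any 1 of wildtype arrays 1 and 3 and DM arrays 1 and 3 (adjusted p up to 0.0925).

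**Figure D4:**
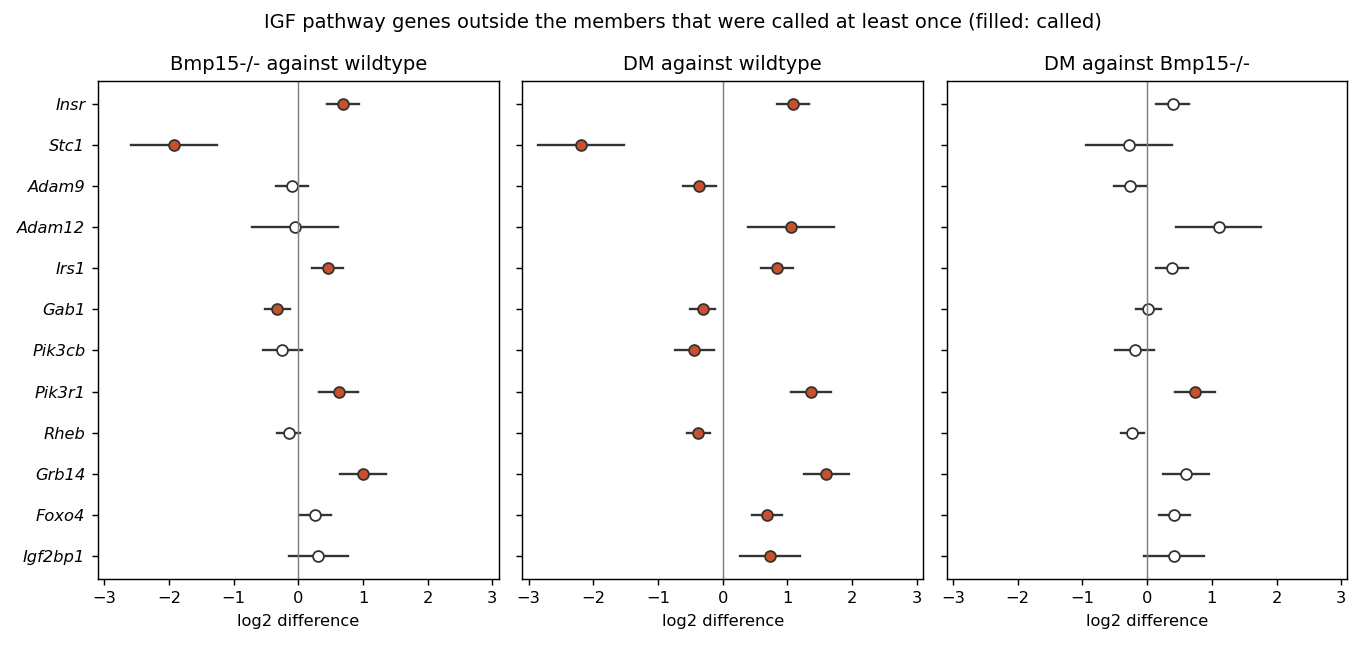
Difference between genotypes on the log2 scale (horizontal axis) with its 95% interval for the 12 pathway genes called in at least 1 comparison, with filled circles where called. Insr, Irs1, Pik3r1 and Grb14 lie right of 0 and Stc1 and Gab1 left of 0 in both comparisons with wildtype, and Pik3r1 alone is filled in DM against Bmp15-/-.

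The genes whose levels followed the members most closely over the 9 arrays were named by Pearson's r, as a description in which the 3 genotypes account for much of the likeness. For Igfbp1 they were G2e3 (r = 0.995), Phldb1 (0.987) and Tmem126a (0.987), with the tenth gene at 0.981. For Igfbp5 they were the transcriptional repressor Zbtb16 (0.978), the GATA cofactor Zfpm2 (0.976) and B3glct (0.976). For Igf1 they were the ATP synthase subunit Atp5a1 (0.987), the PCNA-binding factor Pclaf (0.985) and Ebpl (0.984). Their changes in DM were -0.76, -1.02 and -0.63 for those like Igfbp1, 2.59, 0.70 and 0.72 for those like Igfbp5, and -0.15, -0.68 and -0.74 for those like Igf1.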

How the data were processed

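Cumulus cell RNA of 9 samples was measured on Affymetrix arrays. The deposited values are log2 expression values per probe set, and RMA and the affy package are named without versions in the submitters' processing notes. Scanner files were not used here. Arrays give no counts, and 3 per genotype limit the precision.

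Of 45101 probe sets, 34958 had 1 gene, by the platform's annotation after RefSeq (GRCm38.p6) had given current symbols. The probe set of highest mean stood for a gene, which was tested if at least 3 arrays exceeded the 40th percentile of their array (13447 of 18194 genes). All arrays entered 1 fit by genotype with limma 3.58.1 (lmFit, eBayes, 2-sided, 6 residual degrees of freedom) in R 4.3.3. Benjamini-Hochberg adjusted p-values are over all genes, or over 23735 probe sets where stated. A fold is 2 to the power of the log2 difference, and RMA values compress it for dim genes. The fit was run on simulated data with the same spread in all genotypes and few changed genes. That setting differs from these data, so it checks the code and not the results. Each sample was a pool of its own, and p-values rest on the spread between pools.

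The members and lists were chosen with earlier results of these data known. All members were named, with the called genes of the pathway lists and, for the 3 called members of largest change, the 3 genes of highest r. Alternatives covered filter, probe set, scaling, floor, variance model, arrays and replicate block.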

Additional observations from a re-analysis of the deposited data

How the results depend on the processing

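With limma and 20 alternatives, the 7 called member changes kept direction and call in 137 of 140 cases. The other 3 were Igfbp1 in Bmp15-/- without wildtype array 1, wildtype array 3 or Bmp15-/- array 1. The 17 uncalled changes gained a call in 12 of 331 cases and turned sign in 8. Those were Igfbp4 in Bmp15-/- (0.033 after quantile normalization, and -0.127 to 0.0439 with an array left out) and Igf1r in DM (-0.014 with the mean of probe sets, and -0.0411 to 0.214 with an array left out).

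Members called in Bmp15-/- numbered 4 with the probe set of largest interquartile range, which added Igf1 and Igfbp4 (the latter on a probe set that passed the limit through wildtype alone), and 1 to 2 when an array was left out. In DM they numbered 5 or 6 under all alternatives, and 5 with any array left out. The member added in DM was Igfbp4, with the probe set of largest interquartile range or the mean of probe sets. Both rest in full or in part on that same probe set. In DM against Bmp15-/- there was 1, Igfbp1, with the stricter filter, the probe set of largest interquartile range, the mean of probe sets, quantile normalization or the intensity trend, and 0 to 3 with an array left out. Over all genes, leaving out an array gave 445 to 1663 calls in Bmp15-/-, 2648 to 4157 in DM and 105 to 922 between the mutants. With only the arrays of the 2 genotypes there were 1894 calls in Bmp15-/- and 117 between the mutants, and 6281 probe sets were called in DM when each was tested on its own.

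Deviations from the genotype means had r from -0.08 to 0.26 between same-numbered arrays of different genotypes. Between arrays of different number they had r from -0.20 to 0.17. With the replicate block, 1084, 3587 and 360 genes and 2, 5 and 0 members were called in the 3 comparisons, and no member's call changed. Gab1 and Irs1 in Bmp15-/- lost their calls under it. Igfbp3, some probe sets of Igfbp4, Stc1 in the mutants and Igf2bp1 lie near the limit of dim values, where differences are least well resolved.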
